A study of Mus musculus with 6 samples.

Results

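The kinesin superfamily is described here as 42 listed mouse genes: motor subunits of the Kif and Kifc families, the kinesin-7 gene Cenpe, the kinesin light chain genes Klc1, Klc2 and Klc4, and the kinesin-2 accessory subunit gene Kifap3. A member was measured when a probe set of the array was annotated to exactly that gene, which gave 108 probe sets for 41 of the 42 genes, of 18193 genes in all; Klc2 was not analysed here. For each gene the probe set with the highest mean over the 6 arrays was kept, and every probe set of Kif21a is given. The list was grouped by role into 13 mitotic motors, 19 transport motors and subunits (18 measured) and 10 genes that act mainly on microtubule dynamics or in cilia.

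The cells were 393P, a line of lung tumour cells from mice with the genotype p53R172H∆g/+ K-rasLA1/+, grown as a mass population from primary tumour tissue. One group of 3 arrays came from 393P cells with a vector for shRNA against MKK4, and the other group of 3 from 393P cells with a scrambled control vector; both carry the tumour genotype. Cultures were grown in triplicate from a single population for each vector, and every p-value below rests on how those cultures varied. The labels give both retroviral infection and transfection as the route of delivery. Map2k4 is the gene of MKK4, a kinase upstream of the stress kinases JNK and p38.

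RNA was hybridised to 1-colour Affymetrix arrays, with median intensities of 92 to 95.76 units and a correlation between arrays of 0.991 to 0.996 across genes. Map2k4 gave 240.12, 294.90 and 287.42 units in the shRNA cultures, against 700.34, 638.24 and 597.42 units in the control cultures, on its brighter probe set. It fell by 1.21 on the log2 scale (exact two-sided permutation p = 0.1, the smallest that 3 against 3 arrays allow). All 7 epithelial markers (Cdh1, Epcam, Krt8, Krt18, Krt19, Cldn4, Cldn7) lay above background on all arrays in both groups; Epcam, Cdh1 and Cldn7 fell by 0.35, 0.14 and 0.13 on the log2 scale, and Krt19 rose by 0.23. The summed intensity of 9 fibroblast markers was 505 to 618 units in the shRNA cultures and 523 to 585 in the control cultures, that of 8 leukocyte markers 1301 to 1517 and 1376 to 1511, and that of 6 endothelial markers 517 to 669 and 571 to 713, and no gene of these 3 lists passed the test (limma; 1 fibroblast gene had an unadjusted p under 0.05). Background means the brightest trpnX probe set (3 are on the array, for a transcript from bacteria) on each array, 26.45 to 39.47 units. Above it on all arrays were 5 of the 9 fibroblast, 4 of the 8 leukocyte and 3 of the 6 endothelial markers. Csf1r (633.07 to 849.86 units) gave the largest part of the leukocyte sum, and Kdr (277.47 to 455.73 units) of the endothelial sum.

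Kinesins are motor proteins that use ATP to move along, or to take apart, microtubules. Transport kinesins carry vesicles, organelles and protein complexes, mostly towards the growing microtubule ends; kinesin-1 is a pair of heavy chains (Kif5) with a pair of light chains (Klc) that bind cargo adaptors, among them the JIP scaffolds of the JNK cascade. Mitotic kinesins build and move the spindle, align chromosomes and divide the cell, and their transcripts accumulate in G2 and mitosis of cycling cells, largely through CHR and CCAAT elements in their promoters. A further set sets the length and growth of microtubules or works in the cilium.

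Of the 41 measured kinesin genes, 4 rose and 3 fell in the shRNA cultures. A gene is said to rise or fall when limma with Benjamini-Hochberg adjustment over all 18193 genes gave an adjusted p under 0.05. This is 17.1% of the members, beside 11.8% of all genes; 6.37% of all genes rose and 5.39% fell. The number of all genes that fell depends on the scaling: it was 981 here, 565 with values as deposited and 561 with centred array medians, while the number that rose was 1158, 971 and 877 in the same order. Among the 27 members in the brighter part of all genes 18.5% were called, beside 20.8% of all genes there. The median log2 change was 0.0087 over the members and -0.0067 over all genes. The genes that rose were Kif21a, Kif21b, Kif2a and Kifc2, and those that fell were Kif11, Kif18a and Kif3c.

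**Figure D1:**
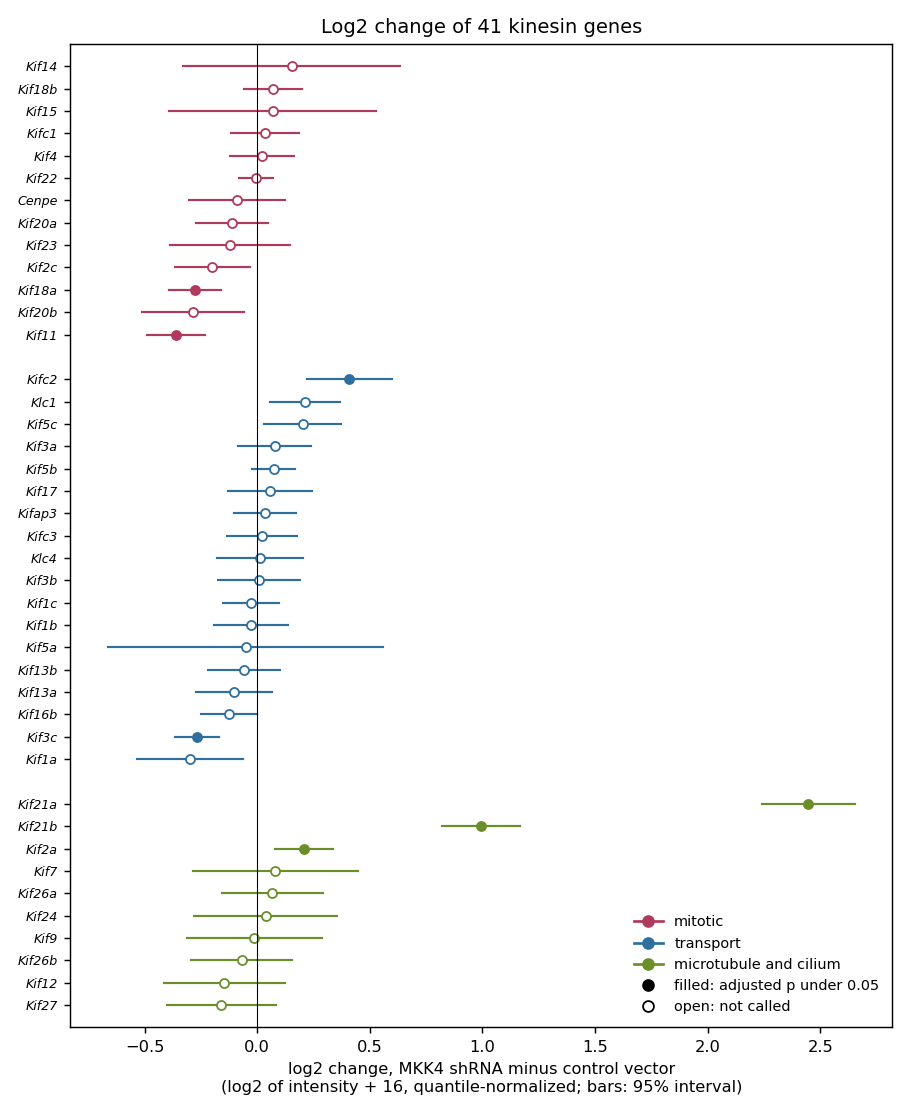
Log2 change (MKK4 shRNA minus control vector) of 41 kinesin genes by role, with 95% intervals from limma on log2(intensity + 16), not adjusted for multiple tests; filled points are called at an adjusted p under 0.05. Kif21a at 2.45 and Kif21b at 0.99 stand to the right, while the members other than these lie between -0.36 and 0.41.

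The largest changes were in both members of the Kif21 pair. Kif21a and Kif21b encode kinesin-4 motors that walk to microtubule plus ends and restrain their growth; in human cells KIF21A is held at the cell cortex by KANK proteins, and KIF21B is best known from neurons and T cells. On its brightest probe set Kif21a, on chromosome 15, gave 265.39, 300.39 and 294.37 units in the shRNA cultures, against 41.72, 39.64 and 36.68 units in the control cultures. Every shRNA array was far above every control array. This probe set ranked brightest only through its shRNA values: in the control cultures the second averaged 76.2 units and this one 39.3. The change was 2.45 on the log2 scale (SE 0.0899, limma adjusted p = 9.14e-06), or 5.45-fold on the scale of intensity + 16. The control values lay above the trpnX level of their own arrays (36.72, 26.45 and 35.96 units), narrowly so on replicates 1 and 3, and the size of the fold depends on the constant added: the log2 change was 2.83 with 1 and 1.76 with 64 in place of 16.

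The second Kif21a probe set rose as well, by less. This probe set gave 153.78, 166.61 and 143.43 units in the shRNA cultures, against 75.72, 75.82 and 77.11 units in the control cultures, all above background. Its log2 change was 0.88 (SE 0.0813, limma adjusted p = 0.00146 over all 45037 probe sets), and its interval of 0.68 to 1.07 does not meet that of the brightest probe set, 2.25 to 2.65, in the same fit. The third Kif21a probe set held 6, 1.16 and 3.51 units in the shRNA cultures, against 1.01, 1.73 and 3.15 units in the control cultures. It lay under background on all 6 arrays, its groups overlapped, and it gives no measure of the change. The mean of the 3 probe sets rose by 1.15 on the log2 scale and was still called (limma adjusted p = 0.000235). The brightest and the second probe set were close in normalized mean over the 6 arrays, at 7.01 and 6.97. The highest-mean rule kept the one with the larger change.

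Kif21b, on chromosome 1, changed in the same direction. It gave 342.83, 321.99 and 357.02 units in the shRNA cultures, against 163.00, 166.41 and 155.67 units in the control cultures. The groups did not overlap, and the spread within each was small beside the gap between them. The mean was 341 ± 17.6 units with the shRNA and 162 ± 5.49 units with the control vector (SD, n = 3 each), a rise of 0.99 on the log2 scale (SE 0.0743, limma adjusted p = 0.000242). Another Kif21b probe set, at 8.68 to 18.89 units in the shRNA cultures and 7.12 to 13.45 units in the control cultures, lay under background throughout. Whether probes of one gene also bind transcripts of the other was not tested.

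**Figure D2:**
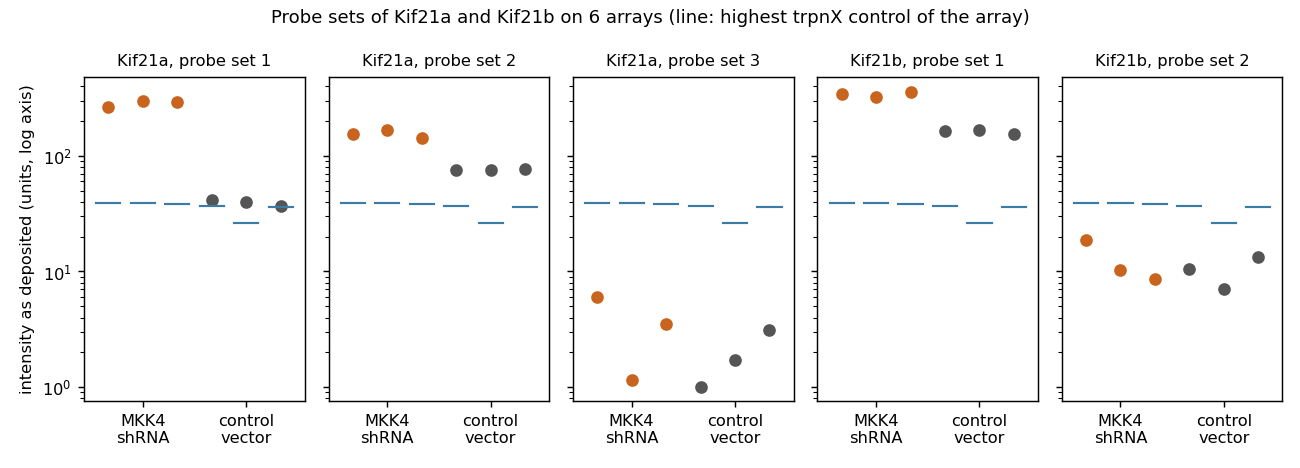
Deposited intensity (units, log axis) of the 3 Kif21a and 2 Kif21b probe sets on each array, numbered from the brightest down, with MKK4 shRNA arrays on the left and control vector arrays on the right of each panel; the short line is the highest trpnX control of that array. The first 2 Kif21a probe sets and the first Kif21b probe set are higher on all 3 shRNA arrays, and the remaining ones lie under the line.

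The sequence upstream of Kif21a is shown because this gene changed most on its kept probe set. It comes from RefSeq (GRCm38.p6, chr15:91049952-91050151, minus strand), is written 5′ to 3′ and ends at the base before the annotated start. None of the motifs searched on both strands was in it, so no letters are in capitals: the CHR hexamer TTTGAA, its palindromic form TTCGAA, the NF-Y box CCAAT and the AP-1 element TGANTCA. The AP-1 element was added to the search after the values were seen, and matched in none of the 34 kinesin genes with an entry in the promoter table, against 8.97% of 27025 genes.
Kif21a: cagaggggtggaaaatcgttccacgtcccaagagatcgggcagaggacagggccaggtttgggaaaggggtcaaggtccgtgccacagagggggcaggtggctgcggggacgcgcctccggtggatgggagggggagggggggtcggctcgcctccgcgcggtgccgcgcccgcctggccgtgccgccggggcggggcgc

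No cortical partner of Kif21a passed the test. Of 11 such genes measured (Kank, liprin, ELKS, LL5 and talin genes) 3 were at an unadjusted p under 0.05 in limma. So were 4384 of all 18193 genes and 3489 of the 9097 brighter ones. All 11 log2 changes were below 0, with a median of -0.085, beside 52% of all genes below 0. The 11 were not tested as a set. Talin 1, Tln1, came nearest, at 1398 units in the shRNA cultures and 1604 units in the control cultures (log2 -0.21, limma adjusted p = 0.0505). Kank2 gave -0.17 (limma adjusted p = 0.0854) and Kank1 -0.12 (limma adjusted p = 0.503).

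Mitotic kinesins gave falls but no rise. Kif11 and Kif18a fell among 13 measured (15.4%), beside 5.39% of all genes that fell, and 11 did not pass the test. In the brighter part of all genes lay 11 of the 13, of which 18.2% fell. Of all genes there 9.9% fell and 20.8% were called either way. Kif11 encodes Eg5, the kinesin-5 motor that pushes spindle poles apart. It gave 503.01, 587.06 and 560.68 units in the shRNA cultures, against 760.23, 692.11 and 653.56 units in the control cultures. The groups did not overlap, though the lowest control array lay only slightly above the highest shRNA array. The log2 change was -0.36 (SE 0.0558, limma adjusted p = 0.00529), or 1.28-fold lower. Its other probe sets gave -0.29 and -0.20, with groups that did not overlap but with limma adjusted p = 0.0843 and 0.193 over all probe sets.

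Kif18a encodes the kinesin-8 motor that shortens kinetochore microtubules and aligns chromosomes. It gave 852.77, 923.29 and 927.27 units in the shRNA cultures, against 1191.61, 1056.83 and 1019.89 units in the control cultures. The groups again did not overlap. The log2 change was -0.28 (SE 0.0503, limma adjusted p = 0.0103), or 1.21-fold lower. The Kif18a call was lost without shRNA replicate 2 (limma adjusted p = 0.0564), without the trend (0.0522) and with the mean of its probe sets (0.138), and Kif11 was not called on its remaining probe sets when those that can match several transcripts were left out (limma adjusted p = 0.0599).

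Several further mitotic motors were lower in the mean with overlapping groups. Kif20b, a kinesin-6 gene of cytokinesis, gave 550.85, 627.46 and 712.62 units in the shRNA cultures, against 875.13, 746.73 and 662.49 units in the control cultures (log2 -0.29, limma adjusted p = 0.111). Kif2c, the gene of the centromeric microtubule depolymerase MCAK, gave 496.20, 544.07 and 557.03 units in the shRNA cultures, against 659.30, 541.91 and 620.36 units in the control cultures (log2 -0.20, limma adjusted p = 0.13). Both were called when the dimmer genes were left out, which took the mitotic count to 4 of 11. Kif23, a subunit of centralspindlin, Kif20a, which acts at the central spindle, and Cenpe, the kinetochore motor, gave log2 changes of -0.12, -0.11 and -0.089. The kept probe sets of Kif20b, Kif2c and Kif20a can match several transcripts. Dimmer probe sets above background gave -0.064, -0.21 and 0.021 for Kif2c, -0.20 for Kif20b, -0.041 for Kif23 and 0.0050 for Cenpe.

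The mitotic motors with log2 changes near or above 0 were Kif22 (-0.0057), a chromokinesin, Kif4 (0.020), another chromokinesin, Kifc1 (0.035), the minus-end motor of the spindle, Kif18b (0.07), Kif15 (0.069) and Kif14 (0.15). The Kif22 value rests on a probe set that can match several transcripts, and its dimmer probe sets gave -0.059 and -0.13. Kifc1 has a close copy in the mouse, Kifc5b, from which its probe set may not be told apart. Kif15 and Kif14 lay near background, each above it on at most 1 array of a group, so that they say little.

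The medians of the mitotic and transport motors both lay near 0; no difference between the classes was tested. The median log2 change was -0.089 over 13 mitotic genes, with 8 below 0, and 0.011 over 18 transport genes, with 8 below 0; 52% of all genes lay below 0. Groups did not overlap for 2 of 13 mitotic genes (15.4%) and 5 of 18 transport genes (27.8%), beside 26% of all genes. In the brighter part of all genes, where 11 of the mitotic and 14 of the transport genes lay, the share was 37.4%. Measured on each array against the mean of the control arrays, the mitotic median was -0.24, -0.064 and -0.031 in the shRNA cultures and 0.087, 0.013 and -0.071 in the control cultures. The 2 groups overlap on this measure: control replicate 3 was lower than shRNA replicates 2 and 3. The mitotic minus transport difference was -0.30, -0.036 and -0.027 in the shRNA cultures and 0.10, -0.0058 and -0.065 in the control cultures.

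One array of each group set much of the mitotic median. Without shRNA replicate 1 the median was -0.043, and without control replicate 1 it was -0.014. On normalized values 6 of the 13 mitotic genes were lowest on shRNA replicate 1 and 8 highest on control replicate 1, with 5 doing both: Kif11, Kif20a, Kif20b, Kif23 and Kif2c. Of 18193 genes 19.3% were lowest on that shRNA array, 15.9% highest on that control array, and 5.18% both. Of 18 transport genes 0 did both. On intensities as deposited Kif18a joined them, making 6 mitotic genes, with 1 transport gene and 7.5% of all genes. Both Kif11 and Kif18a were still called without either of these arrays. In whole cultures, fewer dividing cells and less RNA per cell cannot be told apart.

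**Figure D3:**
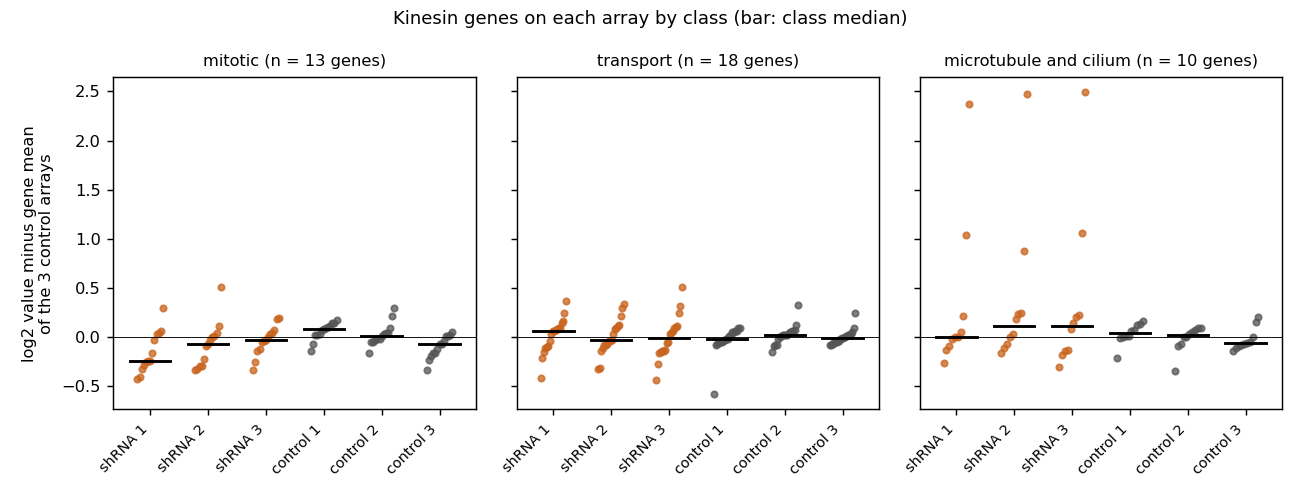
Log2 value of each kinesin gene minus its mean over the 3 control arrays, by array and role, with MKK4 shRNA arrays to the left of control vector arrays; black bars are class medians. The mitotic median is lowest on shRNA array 1 (-0.24) and highest on control array 1 (0.087), the transport medians stay near 0, and the 2 high points in the third panel are Kif21a and Kif21b.

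The CHR and CCAAT motifs were searched as the elements named above for mitotic kinesins. Their counts come from the genome sequence and not from these arrays. The CHR hexamer TTTGAA, searched on both strands from 250 bases before to 50 bases after each annotated start (RefSeq, GRCm38.p6, where 34 of 42 members matched), was present in 10 of 12 mitotic genes, 1 of 13 transport genes (Kif1a) and 2 of 9 microtubule and cilium genes, against 20.2% of 27025 genes. CCAAT was present in 8 of 12, 5 of 13 and 3 of 9 genes, against 41.1% of all genes, and the palindrome TTCGAA in 0 of 12, 0 of 13 and 1 of 9 genes (Kif24), against 1.8%. Within 25 bases of the start, a window chosen after the matches were seen, TTTGAA was found in 8 mitotic genes, no transport gene and 1 further kinesin gene (Kif26b), against 3.16% of all genes. No test was made of these counts.

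**Figure D4:**
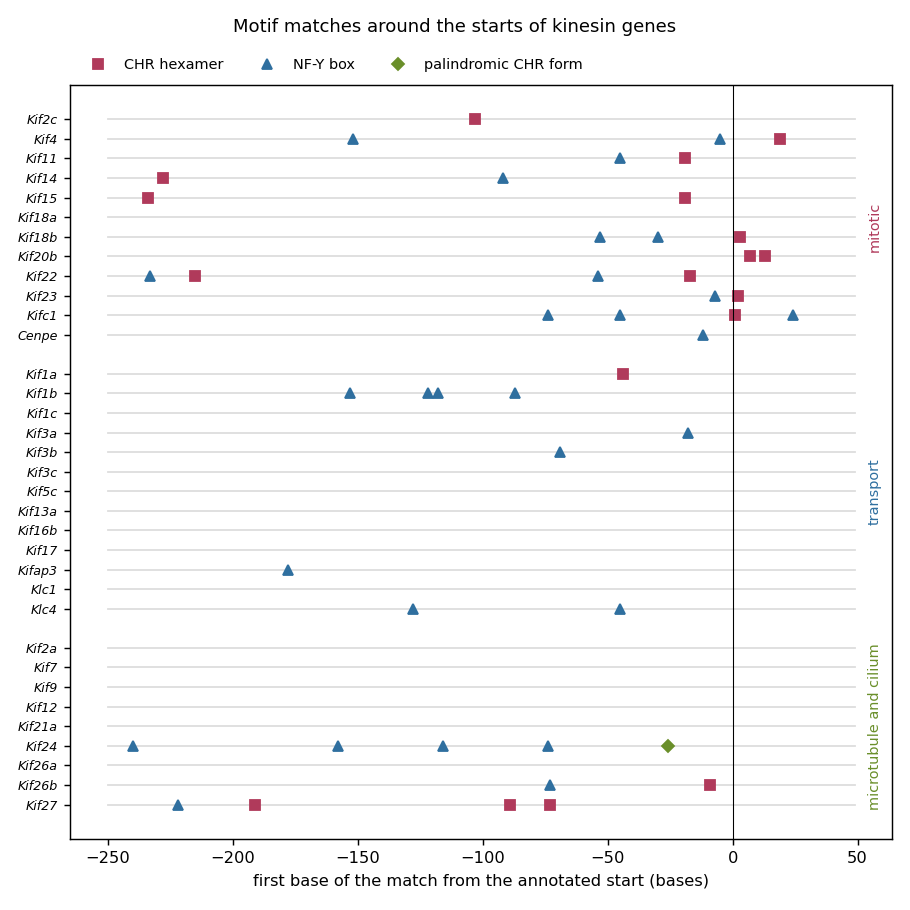
Position of motif matches (first base, in bases from the annotated start) in the 34 kinesin genes with a promoter entry, by role; squares mark the CHR hexamer, triangles the NF-Y box (CCAAT) and the diamond the palindromic CHR form. The squares of 8 mitotic genes cluster at the start, and the transport genes have 1 square, that of Kif1a.

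The windows of 30 bases around these matches are shown to let the start regions of the mitotic motors be compared; the hexamer is in capitals, as TTTGAA or as its complement TTCAAA, and Kif20b holds it in tandem. They are from RefSeq (GRCm38.p6) and run 5′ to 3′ on the strand of the gene: Kif11 chr19:37376351-37376380 (plus), Kif15 chr9:122951050-122951079 (plus), Kif18b chr11:102925104-102925133 (minus), Kif20b chr19:34922353-34922382 (plus), Kif22 chr7:127042420-127042449 (minus), Kif23 chr9:61946780-61946809 (minus), Kif4 chrX:100626072-100626101 (plus) and Kifc1 chr17:33890615-33890644 (minus).
Kif11: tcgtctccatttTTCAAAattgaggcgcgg
Kif15: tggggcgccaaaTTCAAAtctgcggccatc
Kif18b: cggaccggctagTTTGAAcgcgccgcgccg
Kif20b: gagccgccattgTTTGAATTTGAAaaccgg
Kif22: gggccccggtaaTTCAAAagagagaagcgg
Kif23: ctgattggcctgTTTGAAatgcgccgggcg
Kif4: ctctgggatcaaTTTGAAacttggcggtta
Kifc1: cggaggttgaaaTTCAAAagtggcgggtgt

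The presence of the hexamer and the calls are set side by side here without a test. Of the 2 mitotic genes that fell, Kif11 has it 19 bases before the start with CCAAT 45 bases before, while none of the motifs was found at Kif18a; Kif22, Kifc1 and Kif4, with log2 changes near 0, have it. The 200 bases before both starts (RefSeq, GRCm38.p6, plus strand, chr19:37376182-37376381 and chr2:109280538-109280737) are shown for this contrast, with matches to the hexamer and to CCAAT (here as ATTGG) in capitals.
Kif11: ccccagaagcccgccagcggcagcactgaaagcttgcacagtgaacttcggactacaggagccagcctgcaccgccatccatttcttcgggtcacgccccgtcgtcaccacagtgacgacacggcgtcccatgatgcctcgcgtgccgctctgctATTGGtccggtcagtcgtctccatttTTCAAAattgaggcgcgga
Kif18a: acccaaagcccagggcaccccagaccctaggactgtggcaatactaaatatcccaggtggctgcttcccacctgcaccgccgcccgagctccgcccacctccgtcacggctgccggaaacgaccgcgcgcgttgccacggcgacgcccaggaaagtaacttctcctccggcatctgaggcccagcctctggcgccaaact

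Of 24 spindle and cytokinesis partners measured 4 fell (16.7%), none rose, and 17 were below 0, with a median of -0.043. Of all genes 5.39% fell and 52% were below 0, and among the brighter part of all genes 9.9% fell and 20.8% were called. Beside the checkpoint kinase gene Bub1 and the proliferation marker Mki67, these were Spc25, a kinetochore gene (log2 -0.24, limma adjusted p = 0.0204), and Tpx2, which targets Aurora A and Kif15 to the spindle (-0.20, limma adjusted p = 0.018). Bub1 gave 1202.74, 1394.87 and 1485.98 units in the shRNA cultures, against 1960.56, 1859.61 and 1707.58 units in the control cultures, and Mki67 gave 737.93, 934.17 and 917.31 units in the shRNA cultures, against 1211.97, 1156.92 and 1053.63 units in the control cultures. Both were lowest on shRNA replicate 1 and highest on control replicate 1, as were 5 of the 24 partners on normalized values and 8 on intensities as deposited. Bub1 and Mki67 passed in 16 of 16 alternatives, Tpx2 in 6 and Spc25 in 5. Spc25 gave 0.14 on a probe set for a single transcript (limma adjusted p = 0.405). Bub1, Spc25, Tpx2 and the kinesin gene Kif18a lie on chromosome 2, where 1399 genes had a median log2 change of -0.074. Mki67 lies on chromosome 7, with a median of -0.014. The kinesin genes Kif11 and Kif20b lie on chromosome 19, with a median of -0.044.

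Transport kinesins moved in both directions. Of 18 measured 1 rose, Kifc2, and 1 fell, Kif3c, which is 11.1% beside 11.8% of all genes. In the kinesin-2 group, Kif3a and Kif3b pair with Kifap3 as the motor of intraflagellar transport, and Kif3c pairs with Kif3a in neurons. Kif3c gave 1157.24, 1163.21 and 1166.87 units in the shRNA cultures, against 1364.46, 1409.92 and 1399.40 units in the control cultures. The groups were well apart and each was tight. The log2 change was -0.27 (SE 0.0419, limma adjusted p = 0.00564), or 1.2-fold lower, and on a dimmer probe set -0.12 (limma adjusted p = 0.688 over all probe sets).

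The other kinesin-2 genes did not pass on their kept probe sets: Kif3a gave 0.077, Kif3b 0.0087, Kifap3 0.035 and Kif17, a motor of cilia and dendrites, 0.056. A second Kif3a probe set rose, with 411.34, 449.10 and 470.32 units in the shRNA cultures, against 356.37, 351.08 and 333.90 units in the control cultures. Its groups did not overlap (log2 0.32, limma adjusted p = 0.0132 over all probe sets), while 2 dimmer ones gave 0.15 and -0.028. The 4 Kif3a probe sets therefore do not give one value for the gene.

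No measured gene of kinesin-1, the conventional motor, passed the test. The ubiquitous heavy chain gene Kif5b gave 1649.75, 1754.47 and 1675.77 units in the shRNA cultures, against 1705.47, 1613.31 and 1510.54 units in the control cultures (log2 0.073, 95% interval -0.023 to 0.17), and its 6 probe sets ran from -0.046 to 0.084. Kif5c, a heavy chain gene prominent in neurons, gave 271.52, 338.44 and 316.42 units in the shRNA cultures, against 256.16, 264.50 and 263.75 units in the control cultures (log2 0.20, limma adjusted p = 0.138). The light chain gene Klc1 gave 431.96, 509.89 and 531.45 units in the shRNA cultures, against 405.01, 431.84 and 409.90 units in the control cultures (log2 0.21, limma adjusted p = 0.0887). The groups of Kif5c and Klc1 did not overlap, and both were called when shRNA replicate 1 was left out (limma adjusted p = 0.0450 for Kif5c and 0.0424 for Klc1), so that the transport count was then 4 of 18. Klc4 gave 0.012 and Kif5a, a neuronal heavy chain gene with control values of 63.32 to 133.99 units, -0.051.

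Kinesin-3 motors, which carry synaptic vesicle precursors, endosomes and other membranes, also gave no call. Kif1a, the synaptic vesicle motor of neurons, gave 76.66, 82.32 and 90.35 units in the shRNA cultures, against 99.95, 110.23 and 105.53 units in the control cultures. Its groups did not overlap (log2 -0.30, limma adjusted p = 0.113). Kif1b gave -0.027, Kif1c -0.026, Kif13a -0.10, Kif13b -0.06 and the endosome motor Kif16b -0.13. Of 7 Kif1b probe sets, which ran from -0.19 to 0.24, the third brightest rose (log2 0.24, limma adjusted p = 0.0491 over all probe sets).

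Among the kinesin-14 genes of transport, which move to microtubule minus ends, Kifc2 rose. It gave 194.76, 196.14 and 216.24 units in the shRNA cultures, against 154.06, 146.87 and 140.00 units in the control cultures. The groups did not overlap (log2 0.41, SE 0.0822, limma adjusted p = 0.0163, 1.33-fold). The call was lost without shRNA replicate 3 (limma adjusted p = 0.0594), without control replicate 2 (0.0584) or 3 (0.0658), with the replicate block (0.0642) and with the mean of its probe sets (0.402), of which the second lay under background. Kifc3, known from junctions of epithelial cells, gave 839 ± 69.4 units in the shRNA cultures and 816 ± 64.5 units in the control cultures (SD, n = 3 each), with a log2 change of 0.020 and a 95% interval of -0.14 to 0.18.

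**Figure D5:**
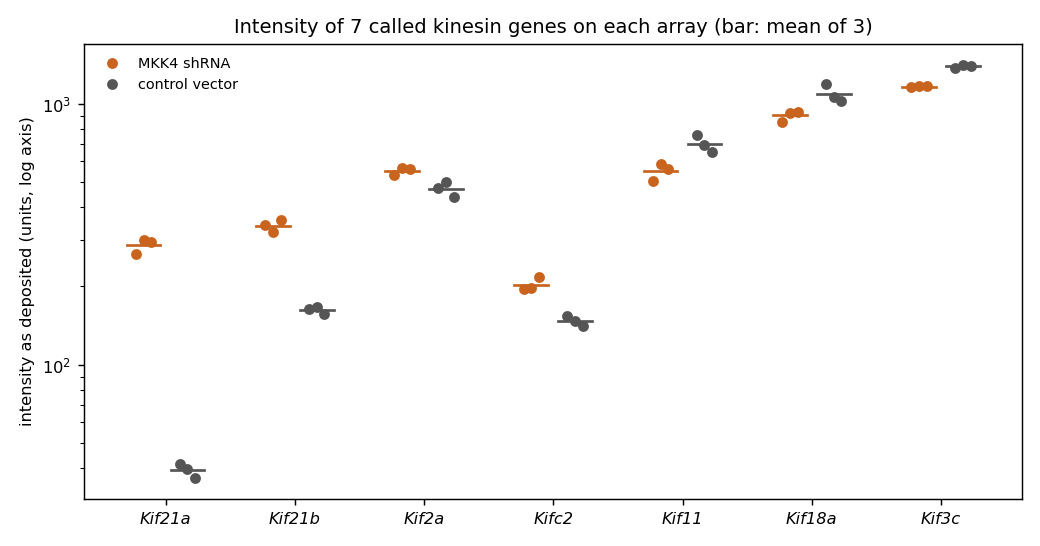
Deposited intensity (units, log axis) of the 7 called kinesin genes on each array, MKK4 shRNA to the left of control vector for each gene, with the group mean as a bar. Kif21a, Kif21b, Kif2a and Kifc2 are higher and Kif11, Kif18a and Kif3c lower on all 3 shRNA arrays; the gaps other than those of Kif21a and Kif21b are small.

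Of the 10 genes of microtubule dynamics and cilia, 3 rose (Kif21a, Kif21b and Kif2a) and none fell, beside 6.37% of all genes that rose. Members and roles were chosen with earlier results of these data known, so this share is no test of the class. Kif2a encodes a kinesin-13 that removes tubulin from microtubule ends. It gave 532.75, 565.48 and 561.16 units in the shRNA cultures, against 474.55, 500.92 and 439.58 units in the control cultures. The groups did not overlap, but the change was small (log2 0.21, limma adjusted p = 0.0492). It passed in 3 of 16 alternative settings, and its other 4 probe sets gave 0.042 to 0.13 with no call. In the fit over all probe sets the kept one was not called either (limma adjusted p = 0.071).

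The ciliary and remaining members did not pass. Kif7, the kinesin-4 regulator of Hedgehog signalling at the cilium tip, gave 134.06, 177.07 and 151.30 units in the shRNA cultures, against 158.06, 108.82 and 166.95 units in the control cultures (log2 0.080, 95% interval -0.29 to 0.45). Kif24 (0.037), a kinesin-13 of the centriole, Kif26b (-0.069) and Kif12 (-0.15) were above background on all arrays with overlapping groups. Kif9 was above it on 2 arrays of each group, and Kif26a and Kif27 on none. In all, 36 of the 41 genes were above background on every array.

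Of 17 cargo adaptors measured 2 rose and 1 fell (17.6%), beside 11.8% of all genes called and 20.8% of the brighter ones. Trak2, which links kinesin-1 to mitochondria, gave 328.80, 356.59 and 365.38 units in the shRNA cultures, against 260.79, 196.83 and 214.24 units in the control cultures. Its groups did not overlap (log2 0.61, limma adjusted p = 0.00643). Trak2 passed in 16 of 16 alternatives, with log2 changes from 0.30 to 0.71. Mfn2, a mitochondrial outer membrane GTPase that binds the Trak and Miro complex, rose by 0.28 on the log2 scale (limma adjusted p = 0.00422), but by 0.13 with the mean of its probe sets (0.25). Mapk8ip1, the gene of the JIP1 scaffold that binds both kinesin light chain and the kinases of the JNK cascade, gave 153.00, 166.35 and 174.25 units in the shRNA cultures, against 228.38, 261.31 and 264.72 units in the control cultures (log2 -0.59, limma adjusted p = 0.00477). Its fall rests on a probe set that can match several transcripts: on another the log2 change was 0.088 (limma adjusted p = 0.752). The scaffold genes Mapk8ip3 (0.084, limma adjusted p = 0.638) and Spag9 (-0.082, 0.407) did not pass.

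Of 24 genes of dynein and dynactin, the motor of the opposite direction, 2 rose and 4 fell (25%), beside 11.8% of all genes called and 20.8% of the brighter ones. Ndel1 (0.29), a dynein regulator, and Dync1li2 (0.22), a light intermediate chain, rose. The adaptor Hook2 (-0.26), the light chain Dynlrb1 (-0.25), the dynactin subunit Dctn3 (-0.17) and the intermediate chain Dync1i2 (-0.15) fell, the values being log2 changes. Dync1li2 gave 0.0057 and Ndel1 0.10 with the mean of their probe sets, neither called. Dctn3 passed in 9 of 16 alternatives, Dync1li2 in 8 and Dync1i2 in 6, with Dync1i2 at -0.075 after chromosome centring (limma adjusted p = 0.198). Of 15 intraflagellar transport genes Ift172 (0.31) and Ift20 (0.26) rose and Ift52 (-0.29) fell (20%), with Ift20 passing in 7 of 15 alternatives. Of 13 tubulin genes Tubb2a (0.40) and Tubg1 (0.26) rose and Tuba8 (-0.52) fell (23.1%), with Tubb2a passing in 10 of 16. Both shares stand beside the same 11.8% of all genes and 20.8% of the brighter ones.

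Of 20 genes of microtubule-binding proteins measured 2 rose and 3 fell (25%), beside 11.8% of all genes called and 20.8% of the brighter ones. Map1b, a neuronal microtubule stabiliser, gave 250.92, 298.66 and 324.91 units in the shRNA cultures, against 172.15, 169.31 and 143.58 units in the control cultures. Map2, known from dendrites, gave 133.37, 182.86 and 191.22 units in the shRNA cultures, against 98.31, 105.77 and 93.93 units in the control cultures. Neither overlapped between the groups, and the log2 changes were 0.77 for Map1b (limma adjusted p = 0.00322) and 0.66 for Map2 (0.0174). Map1b passed in 16 of 16 alternatives and Map2 in 9 of 15, giving 0.15 with the mean of its probe sets. Mapre1 (-0.31), the gene of the plus-end protein EB1, Map7 (-0.27), an activator of kinesin-1, and Stmn1 (-0.22), the gene of the tubulin-binding protein stathmin, fell.

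Over single probe sets, 9 of 108 kinesin probe sets were called (8.33%), beside 6.37% of all 45037. The 6 that rose belong to Kif21a (2), Kif21b, Kifc2, Kif1b and Kif3a, and the 3 that fell to Kif11, Kif18a and Kif3c. Of 29 genes with several probe sets, Kif21a was the one with more than 1 called. A further 19 kinesin probe sets lay under background on all arrays.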

How the data were processed

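Each probe set has a linear intensity as deposited; how the authors summarised and normalized it is not stated in the labels. A pseudocount of 16 was added, log2 taken, and values quantile-normalized. The platform annotation named the genes; 64 control probe sets were left out. The probe set with the highest mean normalized value stood for its gene. Groups (3 MKK4 shRNA, 3 control vector) were compared with limma 3.58.1 in R 4.3.3 (lmFit, eBayes with trend, Benjamini-Hochberg at 0.05); probe sets were tested in a fit over 45037. Intensities printed are as deposited, fold changes are on the log2(intensity + 16) scale, which understates dim genes, and the number of arrays limits precision. Named were all members, Map2k4, up to 4 called genes of each partner list, and marker genes; Tln1, Kank1, Kank2, Mapk8ip3, Spag9, Dctn3, Dync1i2, Stmn1 and the array order were picked after their values were seen. Members, roles and lists were chosen with earlier results of these data known. Alternatives, 16 in all, were other normalizations, pseudocounts of 1 and 64, filters, probe set rules, no trend, the replicate block, chromosome centring and leaving out each array. On simulated data with 18193 genes, 200 of them changed, limma recovered 57% of changes of 0.5 and 88% of changes of 1 (log2); 3.33% of calls were false. In the data 2139 genes were called, so these shares need not hold for them. The changes of Kif2a, Kifc2, Kif11, Kif18a and Kif3c were smaller than 0.5, for which no recovery is given.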

Additional observations from a re-analysis of the deposited data

How the results depend on the processing

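The called kinesin genes kept their sign in each alternative run for them, which were 16, but 15 for Kif21a and 14 for Kifc2, left out with the dimmer genes and, for Kifc2, with the probe sets matching several transcripts. Kif21a, Kif21b and Map2k4 passed in each setting run, Kif11 and Kif3c in 15 of 16, Kif18a in 13 of 16, Kifc2 in 9 of 14 and Kif2a in 3 of 16. The kinesin count of 7 was 3 with the mean of all probe sets and 4 without those matching several transcripts. The mitotic count of 2 was 4 without dimmer genes and 1 with the mean of all probe sets, without those matching several transcripts, and without the trend; the transport count of 2 was 0 with the mean of all probe sets, 1 without those matching several transcripts and 1 with the replicate block. With 1 array left out the kinesin count ran from 5 to 8, the mitotic from 1 to 3, the transport from 1 to 4 and that of microtubule and cilium genes from 2 to 3, and the number of genes called, 2139, from 1152 to 1667. It was 1127 without the trend, 1206 with the replicate block and 1763 after chromosome centring. Median log2 changes differed by chromosome, with -0.074 on chromosome 2 and 0.057, 0.056 and 0.052 on chromosomes 11, 15 and 13. The origin of these chromosome medians was not tested. Arrays with the same letter did not deviate together (r = -0.031, -0.0061 and -0.11, against -0.092 to 0.13 for other pairs). This does not settle whether cultures of the same letter were handled together. Under the block 5 kinesin genes were called. Of genes called, lower ones were 981 and were 565 with values as deposited, 561 with centred medians and 473 without the trend. They were 520 with the replicate block, 738 after chromosome centring and 513 to 754 with 1 array left out. Higher ones were 1158, and 971 as deposited. Signs changed for 18 members, none of them called, and for the partners Mapk8ip1 (0.088) and Spc25 (0.14) without probe sets matching several transcripts. With the mean of all probe sets these were Kif1b (0.038), Kif13a (0.040), Kif13b (0.031), Kif17 (-0.013), Kif24 (-0.035) and Kif3b (-0.091). Kif5a gave 0.11 without probe sets matching several transcripts, and Kif22 0.0081 as deposited, 0.0037 with centred medians and 0.0087 after chromosome centring. With 1 array left out the ranges were Kif1b -0.073 to 0.015, Kif1c -0.081 to 0.024, Kif3b -0.071 to 0.058, Kif4 -0.0094 to 0.043, Kif5a -0.34 to 0.14, Kif7 -0.092 to 0.18, Kif9 -0.12 to 0.067, Kif14 -0.025 to 0.35, Kif15 -0.097 to 0.25, Kif22 -0.030 to 0.0072, Kif24 -0.060 to 0.19, Kifap3 -0.0073 to 0.076, Kifc1 -0.022 to 0.074, Kifc3 -0.029 to 0.085 and Klc4 -0.028 to 0.093. The cause of these shifts was not tested. Low signal limits Kif9, Kif14, Kif15, Kif26a and Kif27.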
